A study of Mus musculus with 8 samples.

Results

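The genes described here encode the proteins of the cytosolic ribosome, and their transcripts were counted in CD8+ T cells of the mouse, isolated as naive and then cultured for 24 h. The medium held DMSO or 2 µM of RGX-104. Members were rows whose symbol follows the pattern of large subunit (Rpl, Rplp) or small subunit (Rps, Rpsa) genes, without pseudogene symbols and without the S6 kinases, with at least 10 counts in at least 4 of the 8 libraries. Of 85 rows that matched the names, 76 passed this minimum, 47 of the large and 29 of the small subunit, among 41730 rows in the table. Every group held 4 libraries of cells purified with a magnetic kit for naive CD8+ cells. The DMSO group (replicates 1 to 4) received solvent, and the RGX-104 group (replicates 5 to 8) a compound that activates the liver X receptors (LXR). No strain, age or genotype is given in the sources used here, and nothing says whether libraries came from separate animals or cultures, so the errors measure the spread between libraries, which may be technical.

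Ribosomal proteins are built into each ribosome together with ribosomal RNA, most of them in equal copy number, and cells make them in step. Their mRNAs carry a pyrimidine tract at the 5′ end, the TOP tract, through which mTORC1 and the RNA-binding protein Larp1 govern their translation. In resting T cells protein synthesis is low, and it rises on activation. Because that control acts on translation, transcript levels report on the supply of these mRNAs and not on the rate of ribosome production.

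Libraries held 16196217 to 28287445 counts, with 9772 to 10990 genes detected, fewest in DMSO replicates 1 to 3. The summed level of 16 genes of CD8 T cell identity, of which Cd2 alone had no count, lay between 6234 and 6528 CPM (counts scaled to 1000000 counts a library) in the DMSO libraries and between 6147 and 7029 CPM with RGX-104. This sum holds genes that lay apart in both directions. Of the 15 tested, 4 had an unadjusted p under 0.05 in edgeR, against 3.81% of all genes tested. Lat was higher and Cd5, Lef1 and Il7r were lower with RGX-104. Of the 15 genes, 0 were called by edgeR and 1 by DESeq2, against 0.11% and 0.329% of all genes tested. Markers of B cells summed to 44.5 to 227 CPM in DMSO and 123 to 194 CPM in RGX-104, and those of macrophages and monocytes to 11.2 to 30.9 and 8.06 to 24.2 CPM. Markers of CD4 and regulatory T cells summed to 160 to 198 and 146 to 200 CPM, and stromal genes to 63.8 to 124 and 68.6 to 122 CPM. The sums were 0 to 7.11 and 0 to 6.24 CPM for dendritic cells, and 5.91 to 11.2 and 4.81 to 14.4 CPM for natural killer cells. For neutrophils they were 0 to 35.8 and 0 to 14.4 CPM. Markers of erythroid cells and platelets summed to 5.26 to 52.4 CPM in DMSO and 5.74 to 22.2 CPM in RGX-104. No count in any library was found for 4 of 12 macrophage and monocyte markers. The same held for 4 of 8 dendritic cell markers (Itgax, Xcr1 and others) and 4 of 8 natural killer cell markers (Ncr1 and others). Whether markers without counts were unexpressed was not tested, and Cd2 of the CD8 T cell list had no count either. The known LXR targets Abca1, Abcg1, Srebf1, Mylip and Scd2 were all higher in RGX-104 (edgeR, adjusted p under 0.05).

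Ribosomal protein genes were among the most abundant transcripts of these cells. They took 19.9%, 21.5%, 20.7% and 22.7% of all counts in DMSO replicates 1 to 4 and 23.0%, 21.6%, 21.0% and 20.5% in RGX-104 replicates 5 to 8. Of the 100 most abundant genes tested 59 were members, and of the first 20 there were 14. The median member stood at 1978 CPM, against 29.97 CPM for the median of 10037 genes tested. The reads came from the 3′ end of transcripts, so these levels need no correction for transcript length. They do depend on how well each 3′ end is primed and mapped.

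Levels differed widely between members, although most of the proteins are needed in like amounts. The highest mean level was 156 times the lowest, and 57.6 times without the paralogs Rpl7l1, Rps27l and Rpl22l1. The mean level was highest for Rps27 (13498 CPM), Rps21 (12739 CPM), Rps29 (11467 CPM) and Rplp1 (10755 CPM), and lowest for Rpl7l1 (86.7 CPM), Rps27l (203 CPM), Rpl36 (234 CPM), Rpl15 (346 CPM), Rps6 (395 CPM) and Rpl24 (583 CPM). Rps27, Rps21 and Rps29 are small proteins of the 40S subunit. Rps27 stood at 13730, 13482, 12818 and 14592 CPM in the DMSO libraries and at 14388, 13396, 12692 and 12884 CPM with RGX-104. The groups overlapped, and the highest library was DMSO replicate 4. Below these stood Rplp2 (6127 CPM), Rps19 (6057 CPM) and Rps24 (5826 CPM). Together 16 members held 50% of all ribosomal protein counts, and in 59 the mean reached 1000 CPM. The plot of levels by gene shows both ends of this range.

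**Figure D1:**
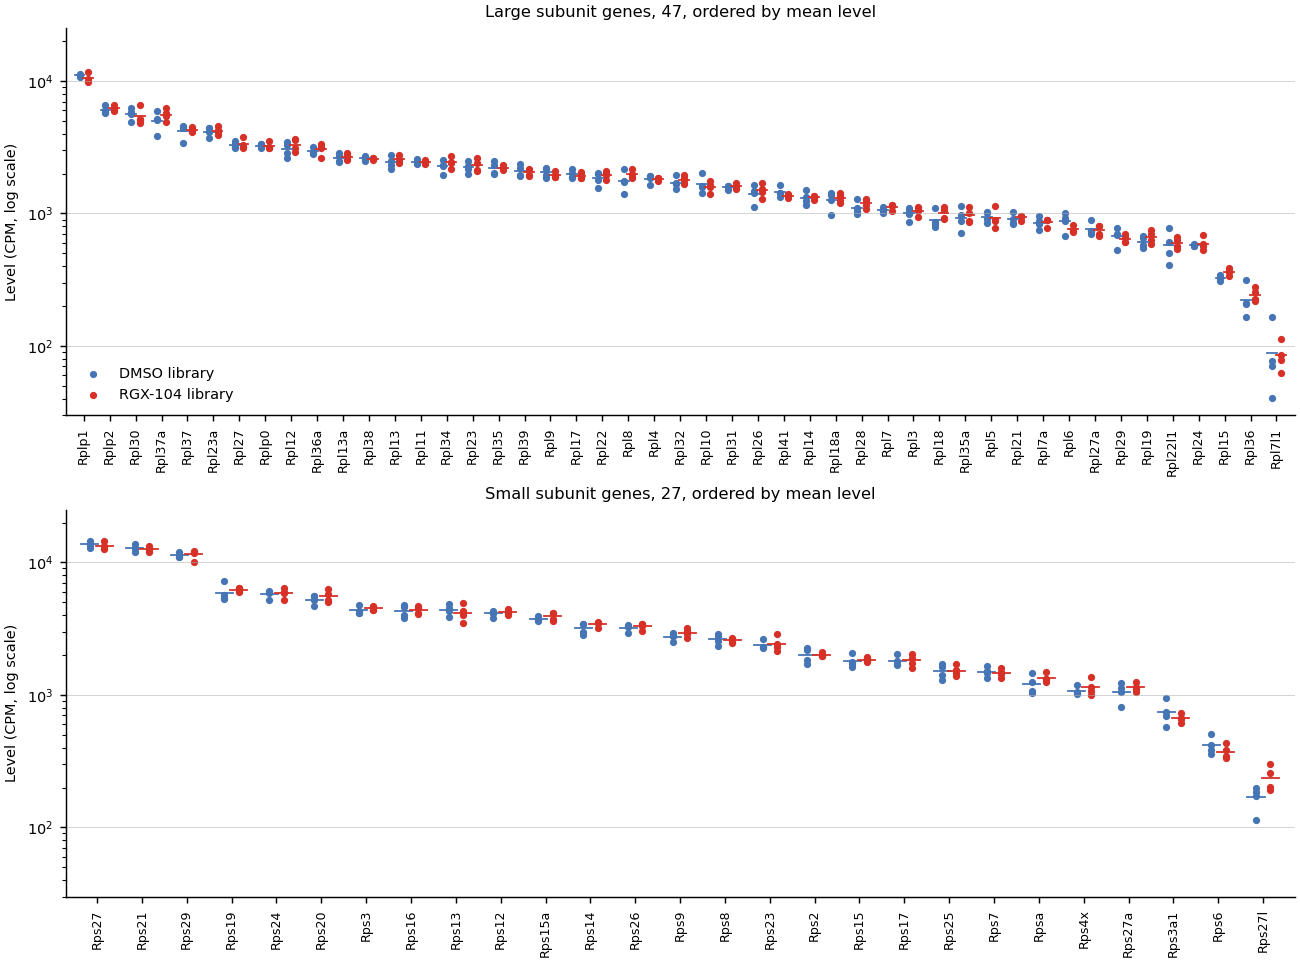
Level of 74 of the 76 ribosomal protein genes in CPM on a log axis, for the large subunit above and the small subunit below, ordered by mean. Points are libraries (blue DMSO, red RGX-104, 4 each) and short lines are group means; levels run from 86.7 CPM (Rpl7l1) to 13498 CPM (Rps27), and the groups overlap in each gene drawn.

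Many ribosomal protein genes have processed pseudogenes, copies of the mRNA elsewhere in the genome, and reads from such shared sequence cannot be assigned to 1 gene. For each member the last 200 bases of 1 GENCODE M21 transcript were compared with the transcripts of all other annotated genes. The transcript ranked as principal was taken, and the longest among equals. Some of those taken were long, such as 5179 bases for Rps15a and 3706 for Rps20. Whether the reads came from the 3′ ends compared was not tested, so the classes hold for these transcripts only. In 31 members no stretch of 50 bases was shared, in 16 under 50% of such stretches, and in 29 at least 50%. Median levels of these classes were 2076, 2154 and 1819 CPM. Still, Rps6 (72.2% of stretches shared) and Rpl36 (82.1%) are uncertain to the extent that shared reads were dropped or split, and so is Rps27, the most abundant member, in which every stretch was shared. Rps6 is the small subunit protein phosphorylated by the S6 kinases, and it stood at 387, 504, 361 and 418 CPM in the DMSO libraries and at 432, 336, 343 and 382 CPM with RGX-104.

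The 5′ ends of these genes were examined for the TOP tract, here a C followed by at least 4 bases that are C or T, read on the sense strand and beginning within 5 bases of an annotated start. Promoter windows of RefSeq (GRCm38.p6, 250 bases before to 50 after a start) were matched to 56 of the 76 members. Such a tract was present in 27 of these genes (48.2%), against 24.2% of 7893 other tested genes and 21.2% of all 27025 genes in the table of windows. A C at the annotated start itself, with at least 4 bases C or T after it, was in 11 of 56 members (19.6%). The shares were 2.93% of the other tested genes and 3.01% of all genes. This second count does not require the tract to begin there. In Rps27, Rps21, Rps6 and Rpl15, which are among the 11, it begins before the start. The sequences below run from 15 bases before to 15 after the start, with the tract in capitals. They show abundant and low members, Rpl6, and core genes with few or no counts, first 8 with a tract and then 3 without one. Those with a tract are Rps27 (chr3:90213634-90213663, minus strand), Rps21 (chr2:180257364-180257393, plus), Rps6 (chr4:86857353-86857382, minus), Rpl15 (chr14:18270972-18271001, minus), Rpl22l1 (chr3:28805493-28805522, plus), Rps27l (chr9:66946071-66946100, plus), Rps18 (chr17:33955651-33955680, minus) and Rps10 (chr17:27635230-27635259, minus). Those without one are the abundant Rps19 (chr7:24884577-24884606, plus, the first of 3 starts, none with a tract), Rpl6 (chr5:121204486-121204515, plus) and Rps28 (chr17:33824548-33824577, minus). The second annotated starts of Rps21 and Rps27l and both starts of Rpl10a had no tract either. The search rests on annotated starts, so a tract not found does not show that the mRNA lacks one. Which starts were used in these cells was not tested.
Rps27: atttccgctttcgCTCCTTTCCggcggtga
Rps21: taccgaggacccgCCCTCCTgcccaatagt
Rps6: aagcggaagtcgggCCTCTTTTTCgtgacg
Rpl15: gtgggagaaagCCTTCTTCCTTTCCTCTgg
Rpl22l1: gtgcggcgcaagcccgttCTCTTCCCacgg
Rps27l: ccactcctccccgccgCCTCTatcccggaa
Rps18: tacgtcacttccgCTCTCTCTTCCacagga
Rps10: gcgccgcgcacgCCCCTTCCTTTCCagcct
Rps19: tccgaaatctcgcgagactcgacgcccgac
Rpl6: tggtcacctcccgtcattgcttatagaccg
Rps28: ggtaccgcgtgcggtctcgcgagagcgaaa
The tract was longest in Rpl15 (17 bases) and shortest in Rps27l (5 bases) among those shown. The motif CCGGAAG, searched on both strands as a core of ETS factor sites, was in 23 of 56 members (41.1%), against 22.9% of the other tested genes and 9.93% of all genes. The direct repeat that LXR binds with its partner RXR, AGGTCA followed by 4 bases of any kind and AGGTCA again, was searched on both strands. None of the 56 members with a window held it exactly there, nor did any of the 7893 other tested genes. Of all 27025 genes 4 did (0.0148%).

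Of the 9 rows that failed the count minimum, 4 encode core proteins that every ribosome is known to carry. Rps10 and Rps18 had no count in any library, Rps28 had 4 counts in all (0, 1, 0 and 0 in DMSO; 2, 1, 0 and 0 in RGX-104), and Rpl10a had 31 in DMSO replicate 4, 37 in RGX-104 replicate 6 and 0 in the other six. For 3 counts over all 8 libraries the upper limit for Rps10 and Rps18 is 0.0186 CPM, for counting error of independent reads only. All 4 lie on chromosome 17 of GRCm38.p6, Rps10 at 27630415 to 27635244, Rpl10a at 28328471 to 28331033, Rps28 at 33823036 to 33824562 and Rps18 at 33951998 to 33955665. Rps2 at 24718121 to 24721927 and Rpl36 at 56610094 to 56614246, members on the same chromosome, had 2001 and 234 CPM.

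All 4 symbols also occur in the table with a suffix (Rps10_1, Rpl10a_1, Rps28_1 to Rps28_3 and Rps18_1 to Rps18_3). These rows had at most 1 count in any library. Of the 85 matched symbols 5 had at least 1 such row, the 4 core genes and the pseudogene Rps4l. None of the 5 passed the minimum, whereas 76 of 80 without such a row passed. Over all protein-coding symbols 13.4% of 1132 with a suffixed row passed, against 43.6% of 20755 without one. Between Rps10 and Rps18 on chromosome 17 the numbers were 6 of 53 and 44 of 77. Rack1, a protein of the 40S subunit outside the name pattern that is otherwise abundant in growing cells, also had a suffixed row. It had 110, 3, 479 and 30 counts in DMSO and 354, 627, 231 and 204 in RGX-104, while the suffixed row had 0 to 108. What the suffix stands for is not given in the sources used here, and the part it plays in the low counts was not tested. These counts are uncertain as a measure of expression, and the 4 genes enter no sum below. The other rows that failed were the paralogs and copies Rpl3l, Rpl10l, Rpl39l, Rps4l and Rpl32l. Only Rpl32l among these had counts, 64 in DMSO replicate 3, 3 in RGX-104 replicate 5 and 1 in RGX-104 replicate 7. The member nearest the minimum from above was Rpl7l1, with 750 to 4014 counts a library.

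Between RGX-104 and DMSO no member was called higher or lower (0 of 76 at an adjusted p under 0.05, edgeR quasi-likelihood test over all genes). Over all 10037 genes tested the call rate was 0.11% (0.0996% higher and 0.00996% lower), and a count of 0 of 76 is near that background. DESeq2 and limma-voom called 0 members too, at rates of 0.329% and 0.139% over all genes. At an unadjusted p under 0.05 there was 1 member, Rps27l, or 1 of 76 against 3.81% of all genes. In no member did the groups fail to overlap, against 3.56% of all genes tested (2.2% higher and 1.35% lower with RGX-104). In bulk RNA a change in the cells present and a change in RNA per cell cannot be told apart.

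These transcripts were measured closely enough to bound a change. The median log2 fold change of the 76 members was 0.014, with 46 above 0 and 30 below, beside a median of 0.0090 and 50.9% above 0 over all genes tested. The middle 50% of members lay between -0.041 and 0.068, against -0.29 and 0.31 for all genes. In 74 of 76 members the 95% interval of the log2 fold change lay within 0.5 of 0, a 1.41-fold change in either direction, whereas this held for 7.78% of all genes tested. The exceptions were Rps27l and Rpl7l1, the members of lowest level, as the plot of fold changes shows. For comparison, 34.4% of 2050 other tested genes between 86.7 and 13498 CPM had such an interval, and their median level was 158 CPM.

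**Figure D2:**
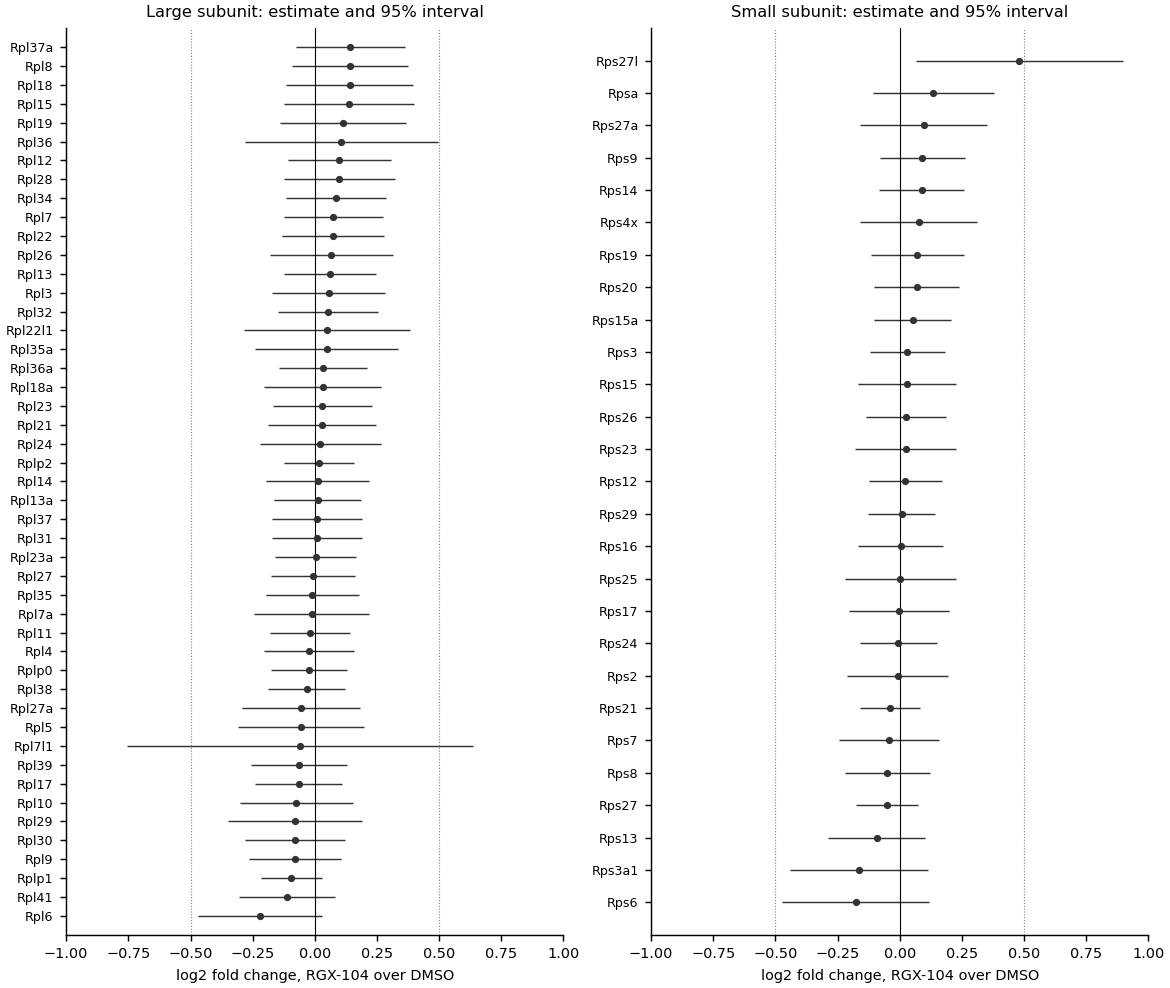
Log2 fold change of RGX-104 over DMSO for 47 large subunit (left) and 27 small subunit genes (right), ordered by estimate, with 95% intervals from edgeR as bars. Dotted lines mark -0.5 and 0.5; the intervals of Rps27l (to 0.90) and Rpl7l1 (-0.76 to 0.64) cross them, and the other 72 drawn do not.

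Among the largest positive estimates after Rps27l were those of Rpl37a, Rpl8, Rpl18 and Rpl15. Rpl37a, a zinc-binding protein of the 60S subunit, stood at 3814, 5061, 5197 and 5910 CPM in the DMSO libraries and at 6205, 5766, 5429 and 4926 CPM with RGX-104. DMSO replicate 4 was the highest of its group and lay above all but 1 RGX-104 library, so the groups overlapped (log2 fold change 0.14, 95% interval -0.076 to 0.36, edgeR adjusted p = 1.00). Rpl8, Rpl18 and Rpl15 also had log2 fold changes of 0.14 each, and all their intervals held 0. Without DMSO replicate 1 Rpl8 was at 0.044 and without DMSO replicate 4 at 0.26, and Rpl18 ran from 0.076 (without DMSO replicate 2) to 0.26 (without DMSO replicate 4). Rpl15, the least abundant of these, was at 328 ± 12.6 CPM in the DMSO libraries and 365 ± 21.8 CPM with RGX-104 (mean ± SD, n = 4).

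The largest negative estimates were those of Rpl6, Rps6, Rps3a1, Rpl41, Rplp1 and Rps13. Rpl6, a protein at the solvent side of the 60S subunit, stood at 1015, 923, 880 and 681 CPM in the DMSO libraries and at 725, 814, 744 and 751 CPM with RGX-104. Replicate 4 was the lowest DMSO library and lay below all RGX-104 libraries (log2 fold change -0.22, 95% interval -0.47 to 0.028, edgeR adjusted p = 1.00). Rps6 had a log2 fold change of -0.18 and Rps3a1, a protein of the 40S platform, one of -0.16. Without DMSO replicate 2 these were -0.084 and -0.033. With genes detected per library as a covariate Rpl6 was at -0.038. Rpl41, Rplp1 and Rps13 lay at -0.11, -0.095 and -0.094, and none of these passed.

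DMSO replicate 4 stood apart from the other DMSO libraries in several of these genes, and it also had the most genes detected among them (10908, against 9772 to 10194). With it as the only control, a choice made after seeing the data, the median log2 fold change of the members was -0.098, Rpl37a was at -0.12 and Rpl6 at 0.12. That library was picked for standing apart in these genes, so the turned signs are a description of it. With any 1 library left out, both genes kept their sign, Rpl37a between 0.032 (without DMSO replicate 1) and 0.24 (without DMSO replicate 4) and Rpl6 between -0.32 (without DMSO replicate 4) and -0.14 (without DMSO replicate 1).

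Large and small subunit genes had nearly the same median change. The median log2 fold change was 0.012 over 47 large subunit genes (28 above 0, 19 below) and 0.021 over 29 small subunit genes (18 above 0, 11 below). Large subunit genes took 9.99% ± 0.53 of all counts in the DMSO libraries and 10.1% ± 0.51 with RGX-104, and small subunit genes 11.2% ± 0.68 and 11.4% ± 0.60 (mean ± SD, n = 4). The small subunit thus gave more counts from fewer genes, and its median member stood at 3092 CPM against 1756 CPM. The log2 ratio of summed large to small subunit levels was -0.154, -0.165, -0.156 and -0.179 in DMSO and -0.158, -0.200, -0.176 and -0.138 in RGX-104. The groups overlapped, and the difference of their means was -0.0045, under the SD within each group (0.011 and 0.027). The plot of shares by library shows both subunits.

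**Figure D3:**
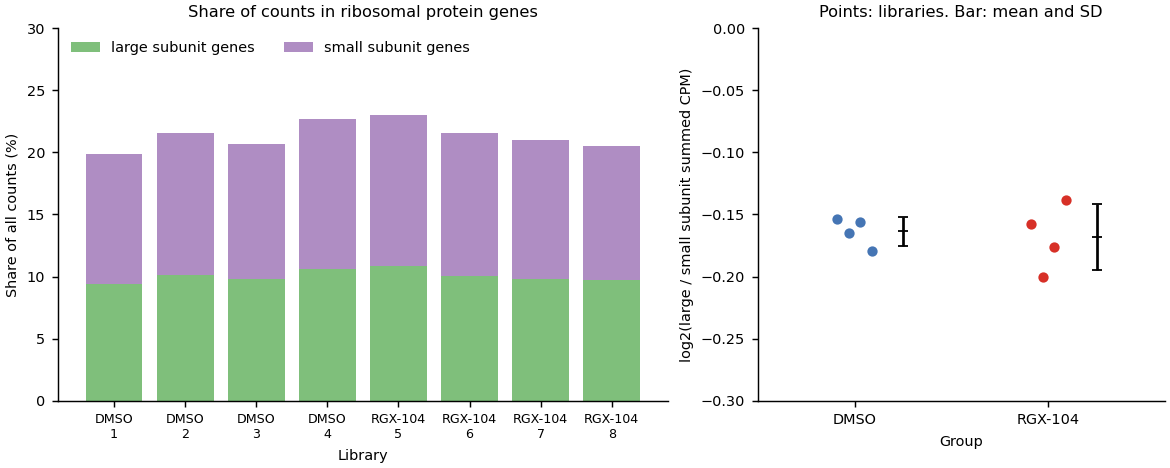
Left: share of all counts in large (green) and small (purple) subunit genes, in percent, for each of the 8 libraries. Right: log2 ratio of summed large to small subunit CPM by group, with points for libraries and the mean and SD beside them; shares run from 19.9% to 23.0%, and the ratios of both groups lie between -0.200 and -0.138.

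Libraries of a group differed little in these genes. The within-group SD of log2(CPM + 0.5) had a median of 0.13 over the members, about 1.095-fold, and ran from 0.044 for Rpl38 to 0.64 for Rpl7l1. Over all genes tested the median was 0.65. Spread was lower at higher levels, as the plot of spread against level shows: between 1000 and 5000 CPM the median was 0.12 for 48 members and 0.13 for 38 other genes, and between 200 and 1000 CPM it was 0.18 for 16 members and 0.20 for 715 others.

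**Figure D4:**
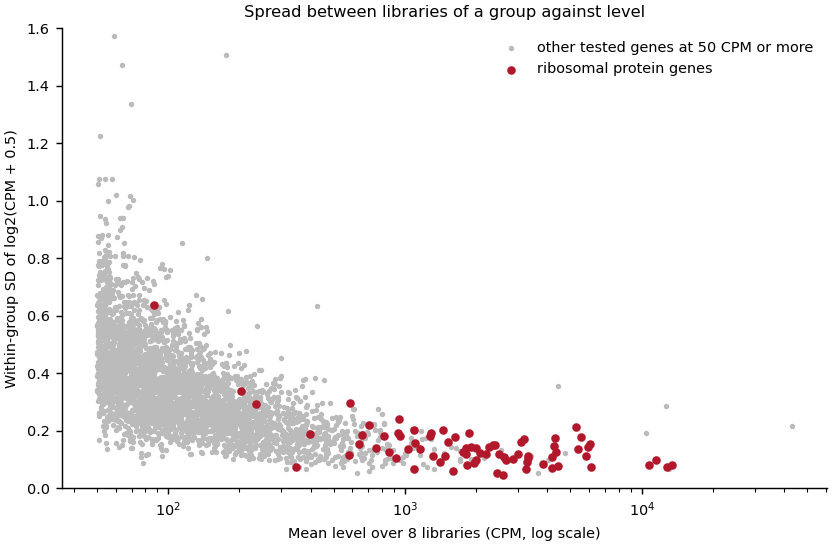
Within-group SD of log2(CPM + 0.5) against the mean level in CPM on a log axis, for the 76 ribosomal protein genes (red) and 3468 other tested genes with at least 50 CPM (grey), 1 point a gene. Members lie in the low band of high levels, and the highest red point is Rpl7l1 (SD 0.64 at 86.7 CPM).

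Some members group by their place in the ribosome or by a second role, and these were picked after their values were seen. The stalk of the large subunit, which recruits translation factors, is formed by Rplp0, Rplp1 and Rplp2. Rplp1 stood at 11049 ± 220 CPM in DMSO and 10462 ± 814 in RGX-104, Rplp2 at 6054 ± 360 and 6200 ± 276, and Rplp0 at 3254 ± 108 and 3239 ± 185 (mean ± SD, n = 4). Rpl5 and Rpl11 join 5S ribosomal RNA and, when unassembled, bind the p53 regulator Mdm2. Their log2 fold changes were -0.056 and -0.019, with intervals of -0.31 to 0.20 and -0.18 to 0.14. Rps27a is made as a fusion with ubiquitin, and Fau, outside the name pattern, as a fusion with a ubiquitin-like protein. Rps27a was at 1054 ± 182 and 1140 ± 83.9 CPM and Fau at 1281 ± 152 and 1298 ± 151 CPM in DMSO and RGX-104. None of these passed.

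Several ribosomal proteins have a paralog that can replace them or act beside them, and 4 such pairs had a paralog above the count minimum (Rpl36al, which the name pattern does not take, included). In no pair did the compared transcripts, 1 a gene, share a stretch of 50 bases, so reads of that length from them could be told apart. Other transcripts of these genes were not compared, and how reads were assigned is not given in the sources used here. Other annotated genes share stretches with some of them, every 3′ stretch of Rps27 and Rpl36a, 57.0% of those of Rpl7, 48.3% of Rpl36al and 39.1% of Rpl22l1, so the shares below are uncertain to the extent that such reads were dropped or split. Rps27l, which p53 is known to induce, stood at 114, 173, 186 and 199.7 CPM in the DMSO libraries and at 202, 300.3, 258 and 190 CPM with RGX-104. The RGX-104 libraries were mostly higher, but replicate 8 lay below DMSO replicate 4, and DMSO replicate 1 was the lowest. The log2 fold change was 0.48 ± 0.20 (SE, 95% interval 0.066 to 0.90, unadjusted p = 0.0255, edgeR adjusted p = 1.00; 0.33 without DMSO replicate 1), higher in 3 of 4 RGX-104 libraries than in any DMSO library. Its share of the summed Rps27 and Rps27l counts was 1.22% ± 0.27 in the DMSO libraries and 1.76% ± 0.40 with RGX-104. The log2 ratio of Rps27l to Rps27 differed by 0.54 between the groups, which did not pass the exact permutation test (two-sided p = 0.0571, adjusted p = 0.229 over 4 pairs, n = 4 and 4). The smallest p that 4 against 4 libraries can give is 0.0286.

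Rpl22 is needed for the development of αβ T cells, and its paralog Rpl22l1 can take its place in the 60S subunit. Rpl22 stood at 1550, 1989, 1805 and 2031 CPM in the DMSO libraries and at 2006, 1952, 1791 and 2095 CPM with RGX-104. Rpl22l1 stood at 410, 776, 501 and 608 CPM in the DMSO libraries and at 633, 567, 664 and 535 CPM with RGX-104. Neither gene separated the groups, and the DMSO libraries were the more spread. Rpl22l1 made up 23.4% ± 3.2 of the pair in DMSO and 23.5% ± 2.8 in RGX-104, a difference of 0.0042 in the log2 ratio (exact permutation p = 0.971, adjusted p = 0.971). Rpl36al held 25.6% ± 0.50 of its pair with Rpl36a and 24.7% ± 2.2 (difference in the log2 ratio -0.068, exact permutation p = 0.571, adjusted p = 0.971). Rpl7l1 held 7.602% ± 4.5 of its pair with Rpl7 and 7.02% ± 1.6 (difference 0.013, exact permutation p = 0.943, adjusted p = 0.971), and its DMSO value rested on replicate 3, at 165 CPM against 40.3 to 76.4 in the others. The canonical genes Rpl7 and Rpl36a were at log2 fold changes of 0.074 and 0.034.

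**Figure D5:**
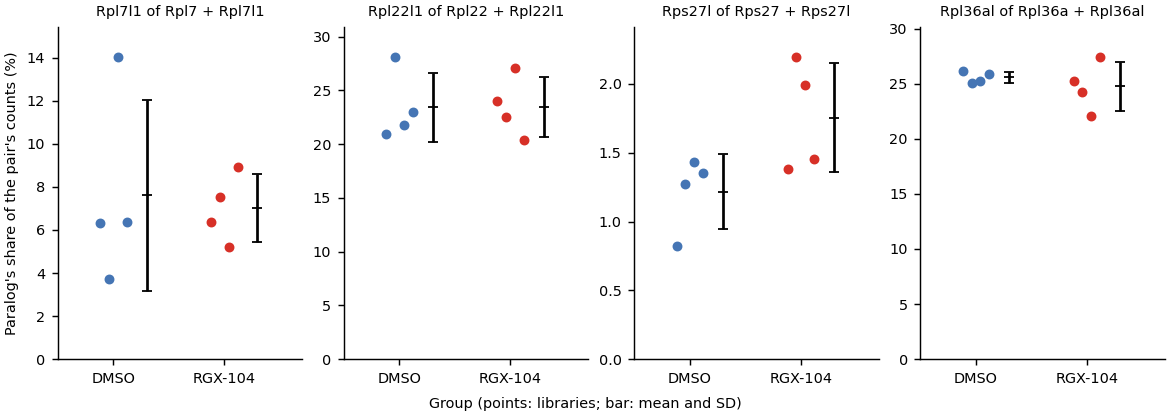
Share of each paralog in the summed CPM of its pair, in percent, for Rpl7l1, Rpl22l1, Rps27l and Rpl36al. Points are libraries (blue DMSO, red RGX-104) with mean and SD beside them, and each panel has its own axis from 0; Rps27l runs from 0.822% to 1.43% in DMSO and from 1.38% to 2.19% in RGX-104, and the groups overlap in all 4 pairs.

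In each list of genes that make, load and use ribosomes 0 were called in either direction by edgeR, DESeq2 or limma-voom. At an unadjusted p under 0.05 (edgeR) there were 2 genes, Bbc3, 1 of 12 in its list, and Upf2, 1 of 17, where 3.81% of all genes tested had such a p. Of 25 translation factors and other mRNAs regulated like ribosomal proteins, 16 lay above 0 and 9 below (median 0.016). The elongation factor Eef1a1 was at 2538 ± 316 CPM in DMSO and 2547 ± 67.8 in RGX-104, Eef2, which moves the ribosome along the mRNA, at 3581 ± 104 and 3725 ± 164, and Tpt1 at 1747 ± 96.6 and 1666 ± 127 (mean ± SD, n = 4). The poly(A)-binding protein Pabpc1 stood at 4074 ± 405 and 4441 ± 306 CPM. Of 59 ribosome assembly factors 31 lay above 0 and 28 below (median 0.012), and 1, the pseudouridine synthase Dkc1, had no overlap between the groups, against 3.56% of all genes tested (311 ± 53.6 and 377 ± 14.1 CPM, edgeR adjusted p = 1.00). Of 18 chaperones and loading factors of ribosomal proteins 8 lay above 0 and 10 below (median -0.064), with Lsg1 at 54.1 ± 11.2 and 78.1 ± 10.2 CPM.

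Of 17 tested genes of RNA polymerase I and its regulators, which make ribosomal RNA, 13 lay above 0 and 4 below (median 0.17). Myc, the transcription factor that drives ribosome production in activated T cells, was at 60.6 ± 17.003 and 68.8 ± 20.1 CPM, and the polymerase subunit Polr1d at 158 ± 42.4 and 209 ± 48.9 CPM. Of 35 genes of mTORC1, its regulators and the S6 kinases 21 lay above 0 and 14 below (median 0.15), and Larp1 was at 471 ± 82.2 and 536 ± 57.7 CPM. Of 12 p53 response genes 9 lay above 0 and 3 below (median 0.25), and 1 had no overlap (3.56% over all genes), the apoptosis gene Bbc3, at 45.5 ± 24.0 and 81.4 ± 7.26 CPM (unadjusted p = 0.0283, edgeR adjusted p = 1.00). Of 17 tested genes of nonsense-mediated decay and ribosome quality control 8 lay above 0 and 9 below (median -0.0080), with Upf2 at 181 ± 21.7 and 233 ± 36.1 CPM. The mitochondrial ribosome is a separate machine with its own proteins, and of its 73 tested genes 42 lay above 0 and 31 below (median 0.077). The groups did not overlap in 2 of these, Mrpl23 and Mrpl14, both higher with RGX-104, a share near the 2.2% of all genes that lay higher without overlap. These genes were far lower than the cytosolic ones (median 33.3 CPM), and their median standard error of the log2 fold change was 0.43, against 0.096 for the cytosolic members. A p that misses the threshold does not show that these lists were unchanged.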

How the data were processed

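Raw whole-number counts per gene symbol were deposited by the authors, per the file headers, with 1 column for each of 8 QuantSeq 3′ mRNA libraries. The submitters' processing notes name STAR 2.7.8a, R 4.1.0, DESeq2 1.4 and the build GRCm38, with no role. Which counter, annotation and strand setting were used, and whether molecular identifiers were, is not given in the sources used here, so reads shared between genes or strands cannot be told apart. PCR copies are not independent molecules, so the limit given for counts of 0 covers counting error only.

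Genes were kept by filterByExpr (minimum count 10), which left 10037, and tested with edgeR 4.0.16 in R 4.3.3 by the quasi-likelihood test with TMM scaling, the group as the only term, and Benjamini-Hochberg adjustment over all genes tested. Standard errors were taken as log2 fold change over root F, and 95% intervals rest on it. CPM uses library totals. Paralog ratios used a pseudocount of 0.5 CPM and a two-sided exact permutation test (scipy 1.17.1). DESeq2 1.42.0 and limma 3.58.1 (voom), other scalings, no filter, a covariate and left-out libraries were alternatives. The fit was tested on simulated data. All 85 matched symbols were found in the RefSeq gene table of GRCm38.p6.

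Members and lists were chosen with earlier results of these data known. Members are named if they are among the 8 highest or 6 lowest levels, the 6 largest changes in each direction at 50 CPM or more, those without overlap between groups (up to 12), those called or with an unadjusted p under 0.05, paralog pairs, or next to the count minimum. In other lists up to 4 genes with the smallest p, and Fau, Rpl36al, Rack1, Eef1a1, Eef2, Tpt1, Myc and Larp1, may be named. Some genes that this rule takes are not reported here; they stay in all sums, medians and counts over the members, but not in the plots by gene. Other genes were named after their values were seen.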

Additional observations from a re-analysis of the deposited data

Results flagged for a closer look

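In 172 groups of 4 libraries examined for a value far from the other 3 (levels of the 76 members, sums, ratios), 6 were found, where chance gives about 8.6, or 1 in 20 groups. Rpl7a stood at 771 CPM in RGX-104 replicate 7, against 886 to 888 CPM in the other RGX-104 libraries. Rpl4 stood at 1773 CPM in RGX-104 replicate 6, against 1834 to 1846 CPM. Rps2 stood at 2108 CPM in RGX-104 replicate 8, against 1964 to 1988 CPM, and Rps14 at 3179 CPM in the same library, against 3476 to 3534 CPM. Among the DMSO libraries Rps23 stood at 2631 CPM in replicate 4, against 2255 to 2311 CPM, and Rpl37 at 3408 CPM in replicate 1, against 4396 to 4573 CPM.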

How the results depend on the processing

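No paired analysis was possible because the library numbers run from 1 to 8 and no number occurs in both groups. The count of ribosomal protein genes called was 0 under each alternative run, of which the one with a single control library says nothing about stability. Over all genes the count called was 11, and it was 33 with DESeq2, 7 when genes detected per library entered as a covariate, and 8 to 14 with 1 library left out. Of 384 values for 24 named members, 340 kept their sign and 44 changed it; the members' log2 fold changes are small, and the cause was not tested. With DMSO replicate 4 as the only control (chosen after seeing the data; the lone library is assumed to vary like the others) the medians were -0.098 (all members), -0.099 (large) and -0.095 (small), and the changed signs were Rpl18 -0.17, Rpl22 -0.085, Rpl22l1 -0.054, Rpl24 -0.024, Rpl36a -0.090, Rpl37a -0.12, Rpl6 0.12, Rpl7 -0.033, Rpl7l1 0.12, Rpl8 -0.16, Rplp2 -0.11, Rps19 -0.24 and Rps29 -0.091. With the covariate they were Rpl18 -0.053, Rplp2 -0.030, Rps13 0.0030, Rps19 -0.078 and Rps29 -0.015. With limma-voom they were Rpl7l1 0.0087 and Rps24 0.019, with upper quartile scaling Rps24 0.0014, and with DESeq2 or its size factors Rps29 -0.0076. With 1 library left out the ranges were Rpl22 -0.0043 to 0.13, Rpl22l1 -0.085 to 0.22, Rpl24 -0.061 to 0.069, Rpl36 -0.024 to 0.31, Rpl36a -0.013 to 0.097, Rpl7l1 -0.31 to 0.42, Rplp2 -0.018 to 0.061, Rps24 -0.054 to 0.045 and Rps29 -0.022 to 0.063. Without a change of sign, the ranges were Rpl8 0.044 to 0.26, Rpl18 0.076 to 0.26, Rpl37a 0.032 to 0.24, Rps3a1 -0.27 to -0.033, Rps6 -0.26 to -0.084, Rps13 -0.19 to -0.023, Rpl41 -0.16 to -0.063 and Rpl6 -0.32 to -0.14. The paralog ratio differences ranged from -0.29 to 0.40 (Rpl7l1), -0.089 to 0.12 (Rpl22l1), -0.14 to 0.0027 (Rpl36al) and 0.36 to 0.65 (Rps27l). The median of all members ranged from -0.017 to 0.051, and the difference in their share of counts from -0.17 to 0.82 percentage points.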

Other observations

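Of 12 rows named as pseudogenes of ribosomal proteins (symbols with -ps) 11 had counts. They summed to 46.9, 33.4, 53.7 and 65.8 CPM in DMSO replicates 1 to 4. In RGX-104 replicates 5 to 8 the sums were 49.4, 46.3, 90.9 and 57.6 CPM. Pseudogenes under other symbols are not in these sums. Beside the ribosomal protein and Rack1 rows, the T cell surface gene Cd2, named after its values were seen, was listed with a suffixed second row, and both rows had no count in any library.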
